A study of Mus musculus with 8 samples.

Results

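A set of 1382 genomic tiles of 1 kb started with little DNA methylation in untreated mouse embryonic stem cells on day 2 and was at least 20 percentage points higher in cells kept with L-proline until day 5. The members were chosen by these measured values: under 15% methylation in untreated day 2, and a difference of 20 points or more between L-proline day 5 and untreated day 2. They made up 5.89% of the 23455 tiles under 15% and 2.79% of all 49568 tiles on chromosomes 1 to 19 that held at least 3 CpGs covered by 10 or more reads in all 8 libraries. The cells, of strain 129/SvP, were seeded sparsely in FBS/LIF, that is, in fetal bovine serum with the cytokine LIF, which sustains self-renewal. The 4 treatments were none, 1 mM L-proline, vitamin C at 500 µM, and the 2 supplements together, and DNA was taken on day 2 and on day 5. Reduced representation bisulfite sequencing (RRBS) was run on 1 library of each of the 8 combinations, and the labels name no line, clone, culture or batch. The labels spell the amino acid L-Prolin. The files hold no RNA, so the labelled cell type could not be checked against marker genes.

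In mammals a methyl group on the cytosine of a CpG is placed on unmarked DNA mainly by the DNMT3 enzymes and copied after replication by DNMT1. TET enzymes oxidise the mark, and vitamin C keeps their iron in the active state. CpG-rich gene starts usually stay free of methylation, while CpG-poor DNA between and within genes is usually methylated in differentiated cells. Mouse embryonic stem cells in serum vary between naive states with low methylation and states nearer to the primed epiblast with high methylation, and L-proline is known to move them towards the latter. A level here is the share of reads at a tile's CpGs that kept their cytosine after bisulfite treatment. It is an average over many cells, so more cells with a methylated tile cannot be told apart from more methylation per cell.

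Few members touched a placed gene start, and some of those can be read base by base. The window from 250 bases before to 50 bases after a start overlapped 24 of 1343 members (1.79%), against 30.8% of the other tiles under 15% and 14.0% of all tiles. Starts were placed by a match of CpG spacing, which took 8 or more listed CpGs, and cover 6341 gene symbols. Among these members 15 had 3 or more covered CpGs inside the window, and 5 of them were picked for print after their values had been seen. Each line gives the 250 bases before the start, 5′ to 3′ on the gene's strand, from RefSeq on GRCm38.p6, and capitals mark the CpGs covered in all 8 libraries, whose values follow.
Gpat2: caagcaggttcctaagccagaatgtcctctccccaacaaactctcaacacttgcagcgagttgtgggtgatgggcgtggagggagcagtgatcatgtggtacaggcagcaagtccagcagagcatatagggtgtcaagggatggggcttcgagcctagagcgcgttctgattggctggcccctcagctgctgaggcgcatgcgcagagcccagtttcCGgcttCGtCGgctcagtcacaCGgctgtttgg
C1qtnf2: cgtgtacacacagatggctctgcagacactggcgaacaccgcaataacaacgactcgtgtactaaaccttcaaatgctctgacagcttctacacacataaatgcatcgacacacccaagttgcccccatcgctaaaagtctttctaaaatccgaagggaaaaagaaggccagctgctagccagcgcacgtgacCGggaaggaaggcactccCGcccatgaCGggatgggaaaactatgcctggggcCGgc
Tnfrsf1a: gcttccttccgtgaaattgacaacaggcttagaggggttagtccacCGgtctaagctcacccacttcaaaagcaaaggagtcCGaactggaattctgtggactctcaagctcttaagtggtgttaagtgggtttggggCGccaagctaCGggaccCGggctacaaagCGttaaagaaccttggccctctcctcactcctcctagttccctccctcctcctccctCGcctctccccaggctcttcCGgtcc
Fer: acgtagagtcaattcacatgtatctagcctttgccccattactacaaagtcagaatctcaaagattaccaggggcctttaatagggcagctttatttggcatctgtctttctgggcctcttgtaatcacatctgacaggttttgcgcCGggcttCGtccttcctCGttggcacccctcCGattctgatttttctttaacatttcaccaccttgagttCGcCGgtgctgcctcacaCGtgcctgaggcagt
4930467D21Rik: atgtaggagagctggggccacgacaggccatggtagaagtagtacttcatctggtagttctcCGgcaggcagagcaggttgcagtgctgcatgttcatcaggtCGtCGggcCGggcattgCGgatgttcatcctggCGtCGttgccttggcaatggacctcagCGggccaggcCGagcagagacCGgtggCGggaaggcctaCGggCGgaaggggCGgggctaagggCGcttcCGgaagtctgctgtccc

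On GRCm38.p6 these stretches are chr2:127424949-127425198 for Gpat2, chr11:43474056-43474305 for C1qtnf2, chr6:125349473-125349722 for Tnfrsf1a, chr17:63937722-63937971 for Fer and chr5:97392167-97392416 for 4930467D21Rik, all on the plus strand. The deposited coordinates are on mm9, where the members that hold them are the tiles chr2:127250001-127251000, chr11:43287001-43288000, chr6:125299001-125300000, chr17:64287001-64288000 and chr5:97821001-97822000. Every other coordinate below is on mm9, and none was converted. CCGG, a palindrome and the site of MspI, the enzyme most often used for RRBS, occurred 1 time in the Gpat2 stretch, 2 times in C1qtnf2 and in Fer, 3 times in Tnfrsf1a and 4 times in 4930467D21Rik. It occurred in 47.8% of all 31396 promoter stretches of this length on chromosomes 1 to 19 and in 99.6% of the 7088 placed ones. The labels do not name the enzyme.

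Gpat2 encodes a mitochondrial glycerol-3-phosphate acyltransferase that is expressed mainly in the testis. Its 4 CpGs lay 33, 27, 24 and 11 bases before the start. They read 10%, 7.8%, 13.7% and 5.9% in untreated day 2 and 62.5%, 43.8%, 37.5% and 37.5% in L-proline day 5. In untreated day 5 they read 19.6%, 23.5%, 17.6% and 13.7%, and in vitamin C day 5 0%, 16.7%, 2.8% and 2.8%. All 4 were therefore lower with vitamin C than without it on day 5, and the nearest pair of values was at the second CpG. The whole tile of 8 CpGs read 9.75% in untreated day 2, 17.7% in untreated day 5, 19.9% in L-proline day 2, 46.5% in L-proline day 5, 1.33% in vitamin C day 2, 4.39% in vitamin C day 5, 5.43% with both on day 2 and 9.07% with both on day 5. The 2 libraries outside the rule that lacked vitamin C both lay above the 4 with it, as at 56.9% of members and 48.2% of all tiles. The difference between vitamin C and untreated on day 5 had an adjusted p of 5.99e-08 by Fisher's exact test, which compares the reads of these 2 libraries and covers counting error only.

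C1qtnf2 encodes a secreted protein of the C1q and TNF-related family. Its CpGs at 57, 39, 30 and 4 bases before the start read 2.8%, 6.7%, 3.3% and 7.4% in untreated day 2 and 73.1%, 79.5%, 56.4% and 77.3% in L-proline day 5. Over these 4 CpGs together, untreated day 5 read 30% (95% Wilson interval 22.8 to 38.4), L-proline day 2 23.4%, vitamin C day 2 7.03%, vitamin C day 5 4.03% (1.86 to 8.51), both on day 2 9.92% and both on day 5 18.8% (12.4 to 27.5). This was the start with the highest level in L-proline day 5 among those printed, at 70.6% (62.2 to 77.9) over 126 CpG readings. Intervals cover counting error only, and neighbouring CpGs on 1 read come from 1 molecule.

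Tnfrsf1a encodes the main receptor for tumour necrosis factor. Its 8 CpGs, between 204 and 6 bases before the start, ranged from 13.6% to 50% in L-proline day 5, with the 2 nearest to the start at 50% and 45.2%. In vitamin C day 5 all 8 read 0% over 269 CpG readings, which allows a level of up to 1.12%. Together they read 7.05% in untreated day 2, 11.5% in untreated day 5, 9.89% in L-proline day 2, 32.9% in L-proline day 5, 1.69% in vitamin C day 2, 5.15% with both on day 2 and 2.69% with both on day 5. Fer, a non-receptor tyrosine kinase, had 7 CpGs before its start that ranged from 33.3% to 66.7% in L-proline day 5 and from 0% to 7.0% in vitamin C day 5. Here untreated day 5 (20.5%) and L-proline day 2 (19.8%) stood close to untreated day 2 (16.1%), and both day 5 (6.91%) stood close to both day 2 (6.44%).

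The 4930467D21Rik stretch is also the start of Naa11, a catalytic subunit of N-terminal acetyltransferase, which is read from the opposite strand. Its 16 covered CpGs did not gain alike. In L-proline day 5 the 5 CpGs from 188 to 130 bases before the start read 32.5% to 44.0%, and the 3 CpGs from 35 to 17 bases before it read 10.5%, 15.8% and 5.3%. The library with both supplements on day 5 had another order. It read 20% at 188 bases, 5.6% at 87 bases and 0% at 147, 144, 139, 130, 114, 111, 77 and 66 bases. At 60, 48, 44 and 35 bases it read 13.5%, 18.9%, 24.3% and 25%, and at 23 and 17 bases 10.8% and 11.1%. Each of these values rests on 13 to 58 reads in the 2 libraries. Over the 16 CpGs the levels were 5.00% in untreated day 2, 11.6% in untreated day 5, 11.96% in L-proline day 2, 26.7% in L-proline day 5, 1.25% in vitamin C day 2, 3.42% in vitamin C day 5, 4.90% with both on day 2 and 9.11% with both on day 5.

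The other 10 gene-start members belonged to Ccdc24, Nsg2, 2200002D01Rik, Slc4a2, Gm1070, Alpk3, Gm33407, Gm46055, Coro1a and Matk. Slc4a2, an anion exchanger, shows that a member tile may gain beside a start and not at it. Its tile read 6.03% in untreated day 2 and 29.0% in L-proline day 5, but the 7 covered CpGs between 92 and 55 bases before the start read 2.48% and 2.38% together, and 6 of these 7 were at 0% in L-proline day 5. The tile of Alpk3, a kinase of heart muscle, read 13.8% in untreated day 2, 28.6% in untreated day 5, 28.4% in L-proline day 2 and 46.3% in L-proline day 5. Its vitamin C libraries read 10.3% on day 2 and 8.89% on day 5, and the libraries with both 15.3% and 17.96%. Over the 15 tiles the lowest, median and highest levels were 4.21%, 17.7% and 33.4% in untreated day 5, 0.479%, 3.42% and 11.9% in vitamin C day 5, and 1.74%, 7.75% and 23.2% with both on day 5. Vitamin C day 5 was below untreated day 5 in 15 of 15, each at an adjusted p under 0.05 by Fisher's exact test, which 39.8% of all tiles passed in that direction. Both day 5 was above vitamin C day 5 in 13 and passed in 8, against 8.72% of all tiles. It was below untreated day 5 in 15 and passed in 9, against 24.1% of all tiles. Among all members the shares that passed were 65.5%, 27.9% and 24.96%, in the same order. The 15 tiles were chosen after their values had been seen, so their counts are a description.

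Across all 1382 members the 6 libraries that the rule did not use stood at different heights between the 2 that it did. The median tile read 8.45% in untreated day 2 and 39.3% in L-proline day 5, values that the choice sets. Untreated day 5 had a median of 16.0% (quartiles 10.4 to 23.1, range 0 to 52.4) and L-proline day 2 one of 16.8% (10.7 to 23.1, range 0 to 70.2). Vitamin C alone gave 5.39% on day 2 (2.74 to 9.24, range 0 to 36.7) and 4.31% on day 5 (1.98 to 7.46, range 0 to 33.8). Both supplements gave 8.497% on day 2 (4.81 to 13.0, range 0 to 40.6) and 10.5% on day 5 (5.95 to 16.7, range 0 to 55.8). The spread is over tiles, since each combination has 1 library. Over all reads in members, levels were 17.1% (95% Wilson interval 17.0 to 17.3) in untreated day 5, 5.19% (5.11 to 5.28) in vitamin C day 5 and 11.9% (11.8 to 12.1) with both on day 5.

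**Figure D1:**
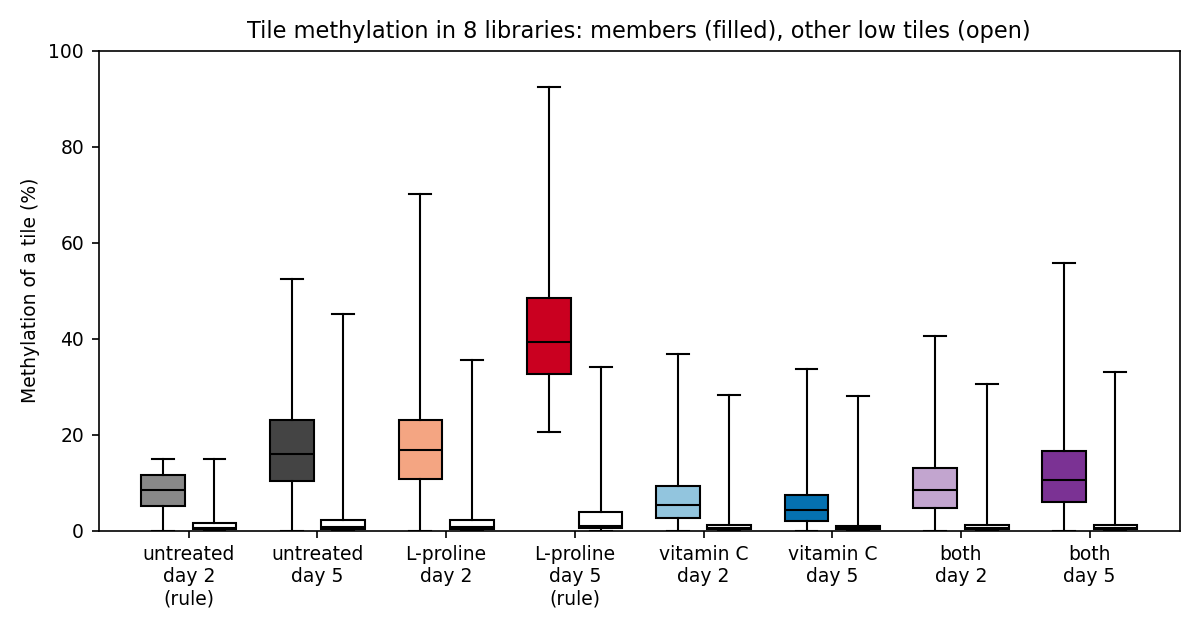
Methylation of the 1382 member tiles (filled boxes) and of the 22073 other tiles under 15% in untreated day 2 (open boxes), by library; boxes show quartiles and median, whiskers the lowest and highest tile. Untreated day 2 and L-proline day 5 chose the members; of the others, untreated day 5 and L-proline day 2 have the highest medians (16.0% and 16.8%) and vitamin C day 5 the lowest (4.31%).

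The other low tiles had medians from 0.559% in vitamin C day 5 to 1.01% in L-proline day 5. The rule limits their level in L-proline day 5, where 882 of 22073 read 20% or more; in untreated day 5 it was 193, with a highest value of 45.2%. The median member tile had 112 reads with both on day 5, 230.5 with both on day 2 and 125 to 150 in the other 6. The median common CpG had 27 reads with both on day 5, 56 with both on day 2 and 31 to 40 in the others. On the lambda contig, which the files list beside the mouse chromosomes and which customarily serves as an unmethylated control, 0.195% to 0.513% of reads were methylated, with both extremes among the day 5 libraries (both supplements and untreated). These shares are small beside the medians of the members.

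In the rule's own contrast the choice fixes that most CpGs of a member gain, so these counts are a description. Of 6855 CpGs, 6618 (96.5%) were higher in L-proline day 5 than in untreated day 2, 5133 (74.9%) by 20 points or more, and 112 were lower. Every CpG was higher in 1221 members (88.4%), and every CpG was higher by 20 points or more in 506 (36.6%). Within a member the gains of its CpGs spanned a median of 30.7 points. In the libraries outside the rule, 18.3% of the CpGs read 30% or more in untreated day 5, 17.7% in L-proline day 2, 2.92% in vitamin C day 2, 1.79% in vitamin C day 5, 4.41% with both on day 2 and 10.1% with both on day 5.

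Most members gained moderately. The difference was 20 to 25 points in 367 members, 25 to 30 in 294, 30 to 40 in 406, 40 to 50 in 191 and 50 or more in 124. Over all tiles 8247 (16.6%) were 20 points or more higher in L-proline day 5, and 1 tile met the rule with the 2 libraries exchanged. Members with a larger gain were also higher in the libraries outside the rule. From the smallest to the largest gain class, the median went from 13.6% to 25% in untreated day 5, from 12.8% to 25.1% in L-proline day 2, from 3.08% to 7.60% in vitamin C day 5 and from 7.08% to 20.6% with both on day 5. Membership went with the starting level: 49 of 14213 tiles under 1% were members (0.345%), 4.90% of those at 1 to 5%, 24.6% of those at 5 to 10% and 43.2% of those at 10 to 15%.

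The 8 members with the largest differences reached 75% to 92.4% in L-proline day 5. The tile chr12:113515001-113516000 read 4.43% in untreated day 2, 50.7% in untreated day 5, 33.3% in L-proline day 2, 92.4% in L-proline day 5, 10.5% in vitamin C day 2, 21.3% in vitamin C day 5, 30.6% with both on day 2 and 32.1% with both on day 5. Every other library lay between the 2 of the rule. It held 3 CpGs and 38 to 108 reads per library, and its nearest placed start, that of the formin gene Inf2, was 311 kb away. The tile chr10:69757001-69758000, 49.5 kb downstream of the start of Slc16a9, a monocarboxylate transporter, read 7.07%, 19.98%, 44.5% and 78.4% in the same order without vitamin C, 2.75% and 2.83% with vitamin C alone and 19.6% and 22.7% with both. There both outside libraries without vitamin C lay above vitamin C alone, and untreated day 5 lay between the 2 libraries with both supplements. Vitamin C day 5 was lower than untreated day 5 at an adjusted p of 0.00046 (Fisher's exact test).

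The tile chr17:46052001-46053000, with the start of the growth factor gene Vegfa 117 kb away as the nearest placed one, read 13.1% in untreated day 2, 40.5% in untreated day 5, 45.5% in L-proline day 2 and 83.4% in L-proline day 5. With both on day 5 it read 40.3%, level with untreated day 5, against 16.2% with both on day 2. The tile chr10:75901001-75902000 lay 4157 bases downstream of the start of Pcnt, the gene of the centrosome protein pericentrin. It read 42.5% in untreated day 5, 43.1% in L-proline day 2 and 83.2% in L-proline day 5. Vitamin C alone read 16.9% and 18.1%, but both supplements read 38.9% on day 2 and 48.1% on day 5, above untreated day 5. The difference between both and vitamin C alone on day 5 had an adjusted p of 5.91e-07 by Fisher's exact test. At chr2:90773001-90774000, 7054 bases upstream of the start of Celf1, an RNA-binding protein gene, both day 5 (45.0%) was also above untreated day 5 (38.5%).

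**Figure D2:**
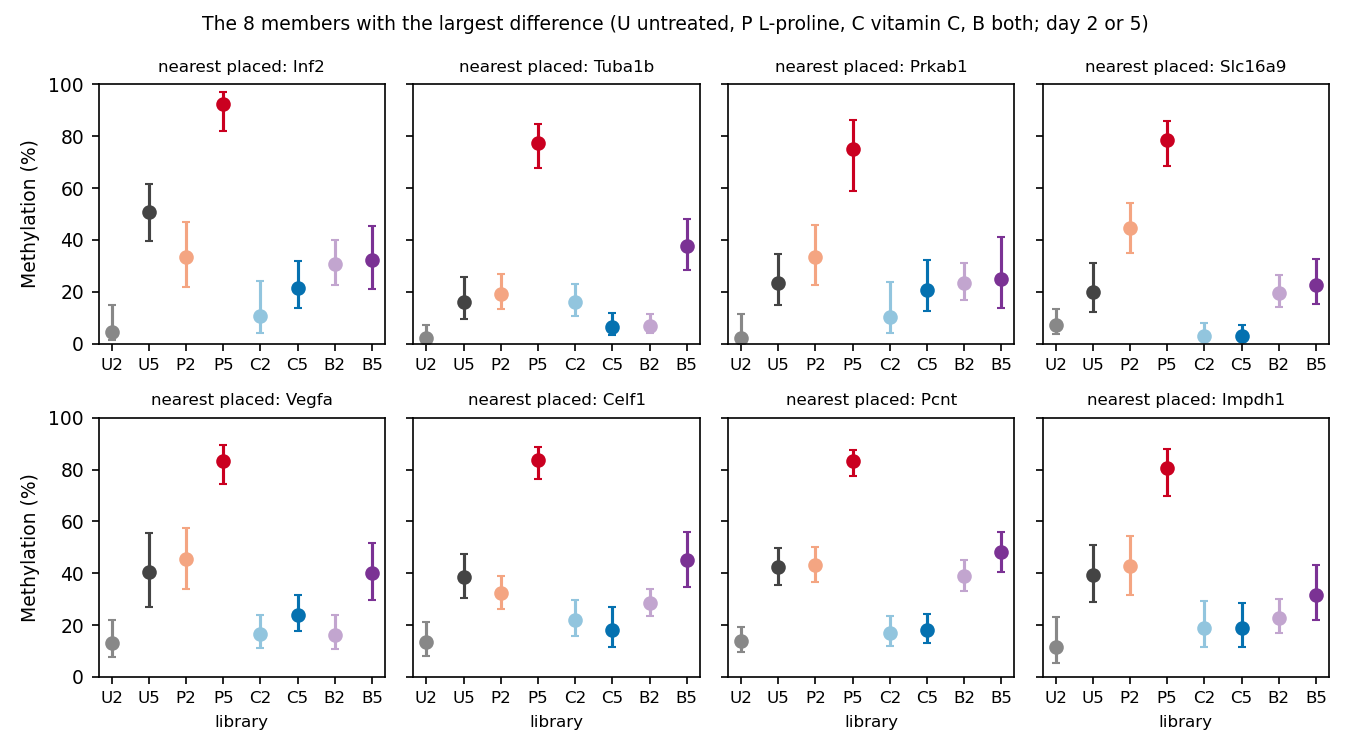
Methylation with 95% Wilson intervals (bars, counting error only) of the 8 members with the largest difference between L-proline day 5 and untreated day 2, in the 8 libraries, each panel headed by the nearest placed gene start, which may be far away. L-proline day 5 is the highest point in all 8 panels (75% to 92.4%), though the rule sets it above untreated day 2 only. Both day 5 (B5) lies above vitamin C day 5 (C5) in each. By Fisher's exact test this did not pass in the panels of Inf2, Prkab1, Vegfa and Impdh1 (adjusted p 0.566, 0.925, 0.120 and 0.339) and passed in the others.

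Untreated day 5 and L-proline day 2 each went part of the way at many of the members. Against untreated day 2, which the rule chose for its low values, untreated day 5 was higher at 1271 members (91.97%) and L-proline day 2 at 1306 (94.5%). These counts are descriptions with no test, and the choice of a low start favours higher values elsewhere. The median difference was 8.15 points in untreated day 5 and 8.19 in L-proline day 2. Over all tiles these medians were 1.18 and 1.48 points, and over the other low tiles 0.147 and 0.159. The shares of all tiles that were higher are not given here. A difference of 20 points was reached at 138 members in untreated day 5 and at 112 in L-proline day 2, at 49 of them in both, and at neither in 1181. L-proline day 5 was the highest of all 8 libraries at 1368 members, and another library reached or passed it at 14. With the same starting limit, untreated day 5 in place of L-proline day 5 would choose 152 tiles, of which 138 are members, and L-proline day 2 would choose 120, of which 112 are members. Tile by tile, L-proline day 2 was above untreated day 5 at 689 members (49.9%). Their levels went together over the 1382 members (Pearson r = 0.72, Spearman rho = 0.72), as a description of tiles that share their CpGs and their choice.

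The highest members in untreated day 5 were chr5:149551001-149552000 at 52.4%, chr4:135332001-135333000 at 51.1%, the chromosome 12 tile above at 50.7% and chr11:50606001-50607000 at 50.5%. The last of these had 7 CpGs and read 14.3% in untreated day 2, 46.0% in L-proline day 2 and 71.4% in L-proline day 5. Its vitamin C libraries parted, at 30% on day 2 and 10.1% on day 5, and those with both read 40.6% and 33.3%. The chromosome 5 tile, with 3 CpGs, read 51.7% with both on day 5, close to its 52.4% in untreated day 5, and 16.2% in vitamin C day 5.

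With vitamin C alone on day 5 the members were lower than in untreated day 5 nearly throughout. The median difference was -11.0 points (quartiles -16.6 to -6.49), and 1340 of 1382 members (97.0%) were lower, against 81.0% of all tiles. By Fisher's exact test 905 members (65.5%) were lower at an adjusted p under 0.05, against 39.8% of all tiles, and 0 were higher, against 0.371%. The other low tiles make up 44.5% of all tiles, and their median of 0.761% in untreated day 5 left little room to be lower. Among them 18.3% passed lower, so the share of all tiles is not a background of equal room. At a difference of 20 points or more as well, 230 members (16.6%) were lower, against 18.9% of all tiles, and 0 higher, against 0.0141%. Only 494 members read 20% or more in untreated day 5 and could be lower by that much. The share past the 20-point limit was thus near the background. Neither library took part in the choice.

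The largest differences were at chr2:180279001-180280000, 44.8 kb downstream of the start of Ntsr1, a neurotensin receptor gene, at chr9:119024001-119025000, 21.9 kb upstream of that of the phospholipase gene Plcd1, at chr4:135332001-135333000 and at chr11:50606001-50607000. The first read 50% in untreated day 5 and 4.67% in vitamin C day 5, and it read 11.8% in untreated day 2, 32.5% in L-proline day 2, 56.2% in L-proline day 5, 16.6% in vitamin C day 2, 20.7% with both on day 2 and 12.5% with both on day 5. The second read 50% in untreated day 5, above its 47.7% in L-proline day 5, and 8.16% in vitamin C day 5 (adjusted p = 1.04e-15, Fisher's exact test). With both on day 5 it read 8.45%, so here the addition of L-proline to vitamin C left the level within 1 point.

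**Figure D3:**
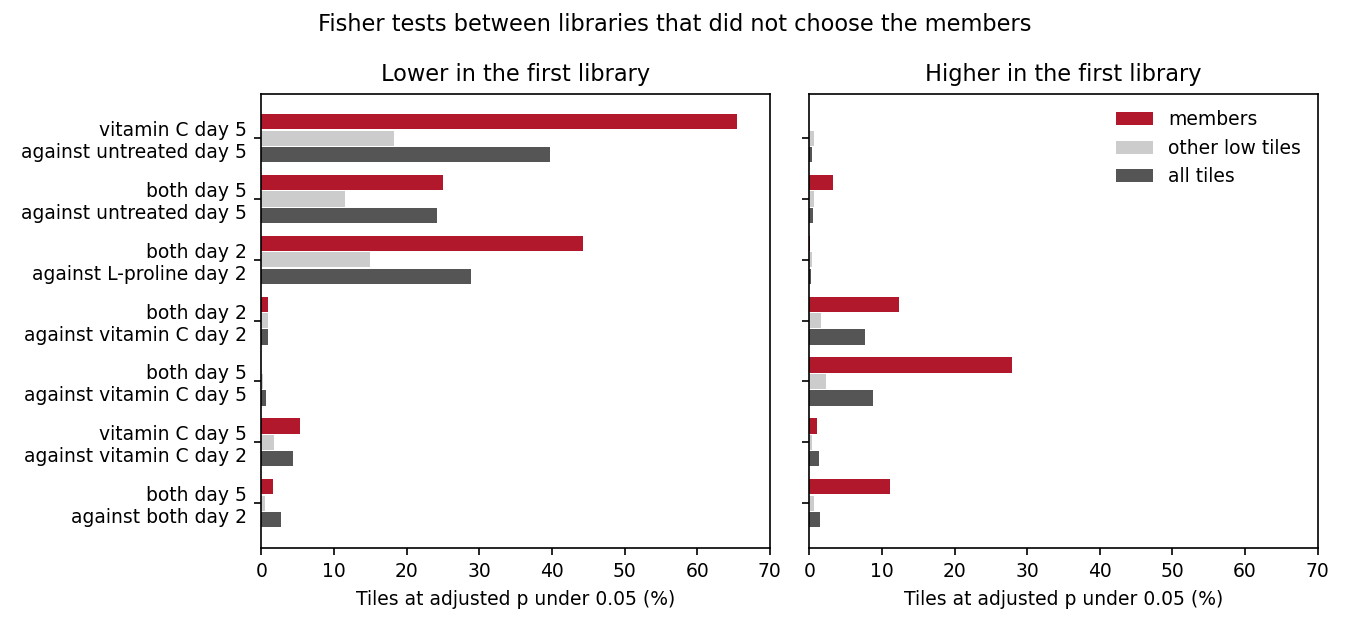
Share of tiles at an adjusted p under 0.05 by Fisher's exact test in 7 comparisons between libraries that did not choose the members, lower (left) and higher (right) in the first-named library, for members, other low tiles and all tiles. Members pass more often than all tiles where vitamin C day 5 is set against untreated day 5 (65.5% against 39.8% lower) and where both day 5 is set against vitamin C day 5 (27.9% against 8.72% higher). The other low tiles, of which 18.3% and 2.26% pass there, are part of all tiles and have little room to be lower.

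Vitamin C in the presence of L-proline went with lower members on day 2. The library with both differed from L-proline day 2 by a median of -7.04 points (quartiles -11.7 to -3.20). Of the members 1268 (91.8%) were lower, against 79.5% of all tiles. At an adjusted p under 0.05, 612 (44.3%) were lower, against 28.8% of all tiles, and 2 (0.145%) were higher, against 0.198%. With the 20-point limit, 49 (3.55%) were lower, against 5.14%, and 0 higher, against 0.00807%. On day 5 the matched library is L-proline day 5, which chose the members, so no test was made there.

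Both supplements on day 5 were set against untreated day 5. The median difference was -4.89 points (quartiles -10.8 to 0.49), with 1003 members (72.6%) lower and 378 (27.4%) higher. Over all tiles 75.7% were lower and 22.2% higher. At an adjusted p under 0.05, 345 (24.96%) were lower, against 24.1% of all tiles, a share near the background, and 46 (3.33%) were higher, against 0.557%. With the 20-point limit 71 (5.14%) were lower, against 9.4%, and 8 (0.579%) were higher, against 0.0847%. This comparison shares untreated day 5 with the one for vitamin C alone, so the 2 are not independent.

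L-proline added to vitamin C went with higher members, more on day 5 than on day 2 by the medians. On day 2 the library with both was a median of 2.70 points above vitamin C alone. Of the members 1030 (74.5%) were higher, against 64.9% of all tiles. There 171 (12.4%) were higher at an adjusted p under 0.05 by Fisher's exact test, against 7.72% of all tiles, and 12 (0.868%) lower, against 0.874%. With the 20-point limit these counts were 7 (0.507%) against 2.58%, and 1 (0.0724%) against 0.0746%. On day 5 the median difference was 5.65 points (quartiles 1.99 to 10.5), and 1186 members (85.8%) were higher, against 62.6% of all tiles. There 386 (27.9%) were higher at an adjusted p under 0.05, against 8.72% of all tiles, and 0 lower, against 0.708%. With the 20-point limit 78 (5.64%) were higher, against 4.23%, and 0 lower, against 0.25%. The difference between the days was not tested.

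From day 2 to day 5 the 2 kinds of vitamin C culture moved to opposite sides at the median. With vitamin C alone the members changed by -0.868 points, 849 (61.4%) lower and 518 (37.5%) higher. Over all tiles 55.5% were lower and 42.0% higher. At an adjusted p under 0.05 by Fisher's exact test, 73 (5.28%) were lower, against 4.39% of all tiles, and 15 (1.09%) higher, against 1.39%. With the 20-point limit 3 (0.217%) were lower, against 1.74%, and 1 (0.0724%) higher, against 0.642%. With both supplements the members changed by 2.02 points, 867 (62.7%) higher and 514 (37.2%) lower, against 43.5% and 55.3% of all tiles. There 154 (11.1%) were higher, against 1.5% of all tiles, and 23 (1.66%) lower, against 2.65%. With the 20-point limit 22 (1.59%) were higher, against 0.412%, and 2 (0.145%) lower, against 0.91%. Over all tiles the median change with both supplements was -0.150 points and over the other low tiles -0.0555, so the members' median was on the other side of 0. With vitamin C alone the median over all tiles was -0.171 points, on the same side as that of the members, and the shares that passed were near the background.

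The members can also be read by order among the 6 libraries that did not choose them. Untreated day 5 and L-proline day 2 both lay above all 4 vitamin C libraries at 787 members (56.9%), against 48.2% of all tiles and 28.1% of the other low tiles. Both lay below all 4 at 0 members, against 1.44%. The highest of the 6 was untreated day 5 at 557 members (40.3%, against 37.3% of all tiles) and L-proline day 2 at 520 (37.6%, against 35.7%). These shares were near the background. Both day 5 was the highest at 247 (17.9%, against 9.43% of all tiles). The lowest was vitamin C day 5 at 720 (52.1%, against 36.6% of all tiles) and vitamin C day 2 at 464 (33.6%, against 26.8%).

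A limma fit across these 6 libraries took vitamin C, day and L-proline as effects that add up. In it 367 members (26.6%) were lower with vitamin C at an adjusted p under 0.05, against 15.9% of all tiles, and 0 were higher, against 0.117%. Among the other low tiles, which had little room to be lower, 9.30% passed lower. On the log2 scale of methylated over unmethylated reads, the median vitamin C term was -1.33 over members and -0.89 over all tiles. The term was negative at 1336 members (96.7%) and at 85.8% of all tiles. The Gpat2 tile had a term of -2.31 and the tile near Slc16a9 one of -2.19, both at the smallest adjusted p, 0.0379. The fit has 2 residual degrees of freedom. No member passed with a pseudocount of 0.5, with at least 20 reads per CpG, with each library centred to 1 median, or without untreated day 5 or L-proline day 2, and 548 passed without both day 5 or, with the same counts, without vitamin C day 2, as did 8772 of all 49568 tiles. At an unadjusted p under 0.05, 819 members were lower in the 6 libraries, among 19670 of all tiles. Without untreated day 5 it was 188 members among 4838 tiles, and without L-proline day 2 656 members among 14024 tiles. Centring turned the median term to 0.01 over members and 0.45 over all tiles. There 81 members were lower and 77 higher at an unadjusted p under 0.05, among 985 tiles lower and 10291 higher, so the direction of the term depends on the centring.

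Some members were not low with vitamin C. The highest mean over the 4 vitamin C libraries, 32.8%, was at chr11:6373001-6374000, 2579 bases downstream of the start of Purb, the gene of a DNA-binding protein. It read 13.9% in untreated day 2, 28.5% in untreated day 5, 32.5% in L-proline day 2 and 43.0% in L-proline day 5. With vitamin C it read 19.02% on day 2 and 24.0% on day 5, and with both 39.9% and 48.5%, the highest of the 8 libraries. There vitamin C day 5 did not pass the test against untreated day 5 (adjusted p = 0.518, Fisher's exact test), and both day 5 was above vitamin C day 5 at an adjusted p of 0.000396. The tile chr7:53296001-53297000 read 29.2% in vitamin C day 2 and 15.2% in vitamin C day 5, and 47.9% with both on day 5 against 44.9% in untreated day 5. At chr17:66687001-66688000 both day 5 (48.4%) and untreated day 5 (47.9%) were within 1 point of each other, with vitamin C alone at 22.8% and 20%. The Pcnt tile completed these 4.

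Tiles with few covered CpGs made up most of the set. Members held a median of 4 covered CpGs (quartiles 3 to 6, range 3 to 32), the other low tiles 15 and all tiles 5. From 3 to 5 were held by 1026 members (74.2%), by 52.6% of all tiles and by 17.5% of the other low tiles. Neighbouring covered CpGs lay a median of 29.0 bases apart in members, 15.8 in the other low tiles and 22.0 in all tiles. Of the tiles under 15%, members were 27.5% of those with 3 covered CpGs, 16.9% with 4 or 5, 6.52% with 6 to 9, 1.48% with 10 to 19 and 0.0819% with 20 or more. Starting level and CpG number were related, so the share was also taken within a starting class. Among tiles at 10 to 15% it fell from 67.8% with 3 CpGs through 52.9%, 37.4% and 17.6% to 5.26% with 20 or more, and among tiles at 5 to 10% from 46.6% through 37.3%, 19.5% and 7.87% to 0.488%. A covered CpG is one read in all 8 libraries, so these numbers describe the sequenced fragments and not every CpG of the tile. With at least 20 reads per CpG, members were 3.45% of the low tiles, against 5.89%. Tiles with few CpGs can hold few reads, and the part of counting error in these shares was not tested. In members with 3 to 19 CpGs, in 4 classes, the medians lay between 15.1% and 17.4% in untreated day 5 and between 4.08% and 4.72% in vitamin C day 5.

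**Figure D4:**
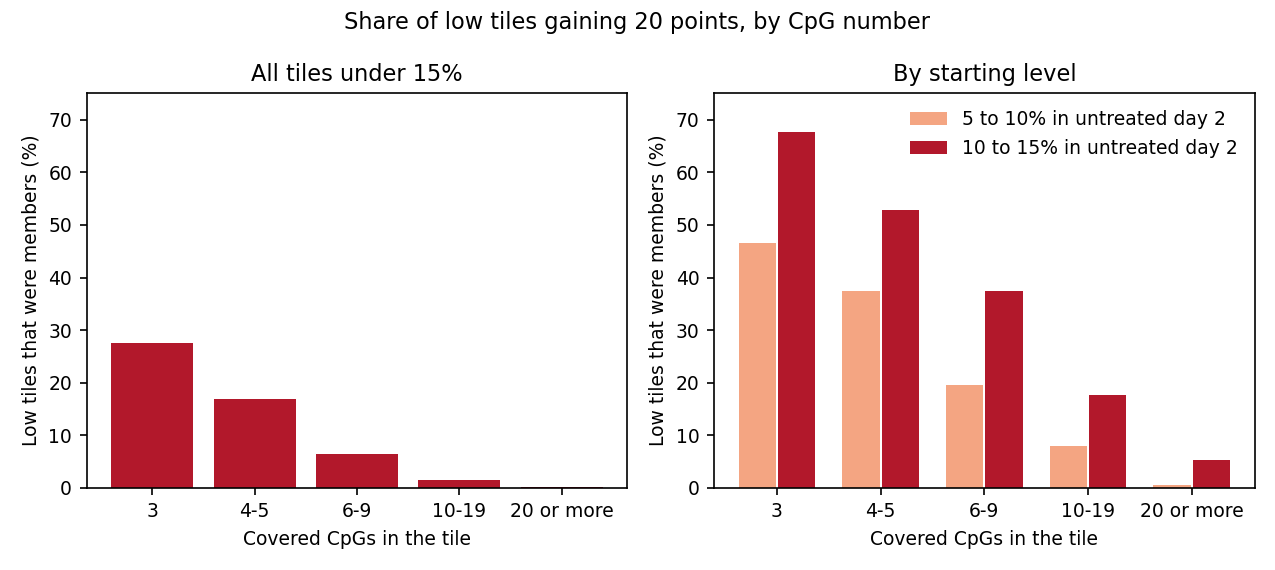
Share of the tiles under 15% in untreated day 2 that were members, by the number of covered CpGs in the tile: over all of them (left) and within 2 starting classes (right). The share falls from 27.5% at 3 CpGs to 0.0819% at 20 or more, and it falls in the same order within tiles that started at 5 to 10% and at 10 to 15%.

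Among the 7 members with 20 or more CpGs, 4 are named for the most. The densest, chr6:124695001-124696000, had 32 CpGs and 944 to 1711 reads per library and lay 33.2 kb downstream of the start of Phb2, the gene of prohibitin 2. It read 9.23% in untreated day 2, 11.6% in untreated day 5, 13.1% in L-proline day 2, 32.0% in L-proline day 5, 4.46% in vitamin C day 2, 6.03% in vitamin C day 5, 9.82% with both on day 2 and 11.2% with both on day 5. Untreated day 5 and both day 5 thus stood within 1 point. The tile chr2:24534001-24535000, with 22 CpGs, 84.2 kb from the start of the calcium channel gene Cacna1b, read 24.3% in untreated day 5, 6.05% in vitamin C day 5 and 10.3% with both on day 5. At chr17:29989001-29990000, with 21 CpGs, the same libraries read 7.34%, 3.70% and 8.90%. The fourth, chr10:80607001-80608000 with 30 CpGs, belongs to the largest group of members.

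Members lay mostly alone. When members within 10 kb of the next were joined, 1208 of 1382 (87.4%) stood alone, and there were 78 pairs, 3 groups of 3, 1 of 4 and 1 of 5. The group of 5 spanned chr10:80591001-80608000, where 11 tiles were measured, and its nearest edge was 3484 bases from the start of Zbtb7a, a zinc finger repressor gene. Its 5 members read 33.2% to 56.3% in L-proline day 5. With both on day 5 they parted: the 3 tiles from 80591001 to 80603000 read 10.4%, 9.08% and 6.96%, and the 2 adjacent tiles from 80606001 to 80608000 read 38.1% and 37.7%. In untreated day 5 the same 5 read 16.6%, 18.2%, 22.9%, 28.7% and 20.1%, and in vitamin C day 5 3.40%, 2.57%, 7.57%, 14.3% and 12.8%. For the 30-CpG tile the difference between both and vitamin C alone on day 5 had an adjusted p of 8.97e-35 (Fisher's exact test).

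The group of 4, chr14:119089001-119098000, held all 4 measured tiles of its span and lay 7941 bases from the start of Abcc4, an efflux transporter gene. Its members read 60.7%, 62.9%, 34.2% and 36.5% in L-proline day 5, 33.5%, 34.4%, 5.71% and 14.1% in untreated day 5, and 11.96%, 8.32%, 1.75% and 1.38% in vitamin C day 5. The first 2 were higher than the last 2 in each of these 3 libraries. A group of 3, chr2:165633001-165647000, started at 2.09%, 8.93% and 14.4% and read 24.9%, 69.0% and 52.7% in L-proline day 5, 3.42%, 27.5% and 33.5% in untreated day 5, and 7.71%, 28.8% and 26.3% with both on day 5.

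By chromosome the share ran from 4.19% of the low tiles on chromosome 14 to 7.38% on chromosome 10. Outside the set, chromosome X had 10 of 432 low tiles (2.31%) that met the same limits. On either side of a member, a tile was measured within 1 kb for 395 members (28.6%), against 64.1% of the other low tiles. Of these 395, 42 (10.6%) had a neighbour at 50% or more in untreated day 2, against 2.57% for the other low tiles and 12.8% for all tiles. A neighbour with 20 or more CpGs and a level under 5% stood beside 96 (24.3%), against 43.5% and 36.03%. The tile directly before was measured for 207 members and was itself a member for 31 of these (14.98%), and the tile directly after was measured for 217 and was a member for 31 (14.3%). Both counts are the same 31 adjacent pairs, read from either side. Beside the other low tiles with a measured neighbour the shares before and after were 1.55% and 1.52%.

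No start was placed on chromosome 18, whose 39 members are left out of every count by gene start. Members were rare at the placed gene starts and more frequent among the low tiles away from them. The placing favours CpG-rich starts: placed promoters held a median of 22 CGs, against 6 over all promoters on chromosomes 1 to 19. Tiles within 500 bases of a placed start also began low, at a median of 0.499% in untreated day 2. Position was not separated from CpG number or starting level, and starts poor in CpGs are not covered. The median distance from a tile's centre to the nearest placed start was 51215 bases for members, 13292 for the other low tiles and 51304 for all tiles. Within 1000 bases lay 46 of 1343 members (3.43%), 38.4% of the other low tiles and 17.6% of all tiles. Of the low tiles within 500 bases of a start 13 of 5617 (0.231%) were members. The share, upstream and then downstream, was 1.89% and 0.847% at 500 to 1000 bases, 7.17% and 6.51% at 1000 to 2000 bases, 10.5% and 10.3% at 2000 to 3000 bases, 7.07% and 11.7% at 3000 to 5000 bases, and 11.2% and 15.01% at 5000 to 10000 bases, so upstream it did not grow steadily with distance. Starts that could not be placed may lie nearer than the one given. Exon, intron and UTR annotation on mm9 was not used here.

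**Figure D5:**
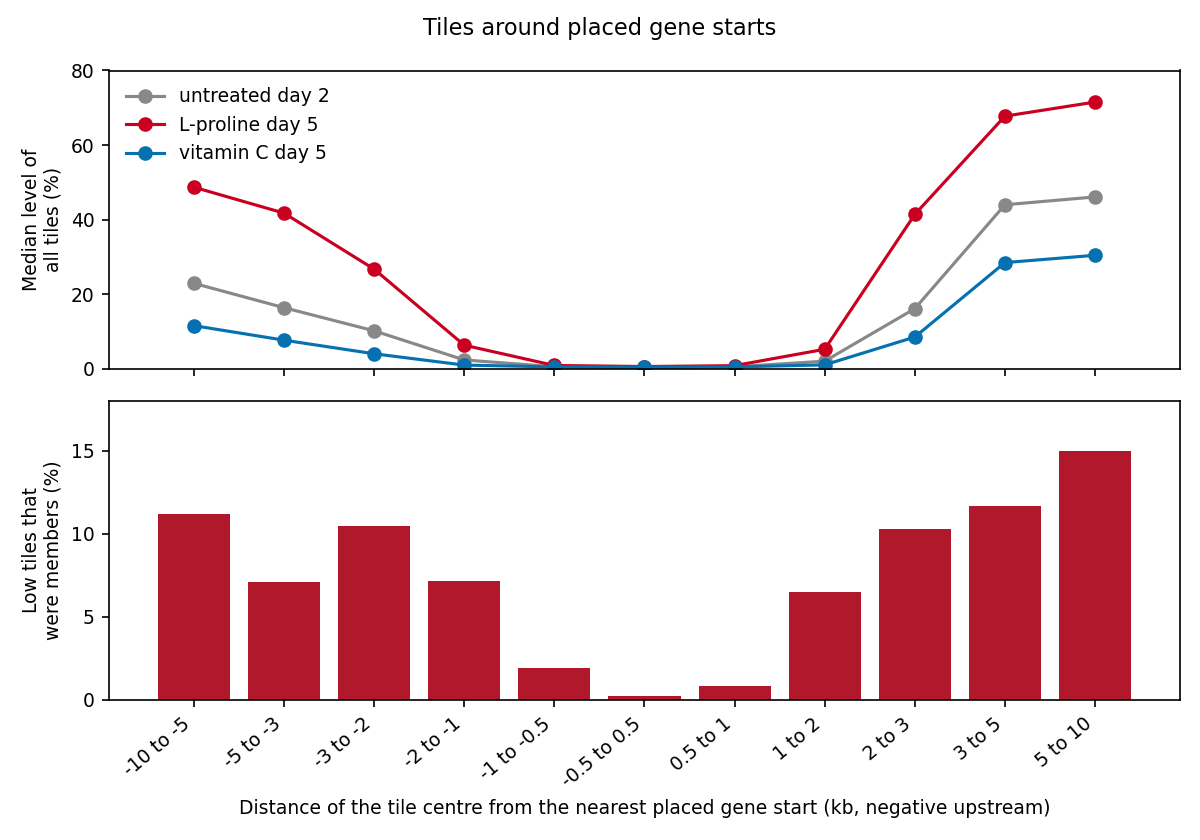
Upper panel, median methylation of all tiles by the distance of their centre from the nearest placed gene start in 3 libraries; lower panel, share of the tiles under 15% in untreated day 2 that were members. The share is lowest, 0.231%, within 500 bases of a start, where the median tile is under 1% in all 3 libraries, and 15.01% at 5000 to 10000 bases downstream.

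In the 11 distance classes, of 11 to 59 members each, the members' medians lay between 13.7% and 20.6% in untreated day 5, between 2.90% and 6.58% in vitamin C day 5 and between 7.90% and 20.7% with both on day 5. The last of these was highest at 2000 to 3000 bases downstream, in 15 members. Differences between classes were not tested. Of the 6271 placed genes with a measured tile near their start, in a window of 1500 bases, 95 (1.51%) had a member there. This window is wider than the promoter window above, which 24 members overlapped. Gene lists for naive pluripotency, primed or formative pluripotency, germline genes, DNA methylation machinery, lineage transcription factors and collagen and matrix were looked up in the same way. Placed starts covered 3 of 15, 5 of 11, 8 of 20, 7 of 9, 2 of 13 and 2 of 7 of their genes, and 0 of them had a member in this window. Dnmt3a and Dnmt3b stand on the primed and on the machinery list. All placed starts of the other 5 lists had a tile under 15% nearby, and 3 of the 8 germline starts did.

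The limits of the rule pass through tiles that look alike. Just inside 20 points, chr13:72173001-72174000 read 10.5% in untreated day 2 and 30.5% in L-proline day 5, and just outside it chr8:98227001-98228000 read 4% and 24.0%. The first of these was at 35.3% in untreated day 5, above L-proline day 5, and the second at 9.71%. The 3 nearest members differed by 20.02 to 20.05 points and the 3 nearest tiles left out by 19.97 to 19.98. Just inside 15% the 3 nearest members gained 27.1, 38.7 and 54.9 points, and just outside it the 3 nearest tiles gained 29.4, 40.3 and 62.6.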

How the data were processed

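Per the submitters' processing notes, CASAVA, BSMAP 2.88 and the build mm9 were used, in roles the notes do not state. Per the deposited files, the authors gave each CpG a methylated fraction of reads and a read coverage of at least 10, with no normalization stated. The steps for duplicates and overlapping mates were not given in the sources used here. The 616929 CpGs on chromosomes 1 to 19 that had 10 or more reads in each library were summed into 1 kb tiles holding 3 or more of them. A tile's level is weighted by reads, and methylated reads are coverage times fraction, rounded. The members and gene lists were chosen with earlier results of these data known.

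Across all 49568 tiles, 7 pairs of libraries outside the rule were compared by two-sided Fisher's exact tests with Benjamini-Hochberg adjustment, at an adjusted p under 0.05 and, where stated, 20 points. With 1 library per group these tests compare libraries, not conditions. limma 3.58.1 (R 4.3.3) was fitted to log2((methylated + 1)/(unmethylated + 1)) over the 6 libraries. Reads carry no molecular identifiers and may copy 1 molecule, so intervals cover counting error only. Scripts (Python 3.11.15) were tested on simulated data.

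No mm9 annotation was used here. RefSeq promoters (GRCm38.p6, 300 bases) were placed on the files' CpG positions where every listed CpG in the window, 8 or more, fell on a CG at 1 position of the same chromosome. Of 15382 tried, 7127 were placed, and the 7088 with the same spacing to a placed neighbour in both builds were kept. The same search on another chromosome placed 37 (0.241%). Tiles are named by a rule: members with at least 30 reads in every library and the largest difference (8), most CpGs, largest untreated minus vitamin C difference on day 5, highest vitamin C mean and highest untreated day 5 level (4 each), the 3 largest groups, and the 3 tiles nearest each limit. The 15 gene-start members were chosen after their values were seen.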

Additional observations from a re-analysis of the deposited data

Results flagged for a closer look

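The change from day 2 to day 5 went to opposite sides in the 2 kinds of vitamin C culture. The median over the 1382 members was -0.868 points with vitamin C alone and 2.02 points with both supplements, from 1 library per treatment and day. By members, 849 (61.4%) were lower on day 5 with vitamin C alone, against 55.5% of all tiles. With both, 867 (62.7%) were higher, against 43.5%. Over all tiles the medians were -0.171 points with vitamin C alone and -0.150 with both. At an adjusted p under 0.05 by Fisher's exact test, 5.28% of members were lower with vitamin C alone, against 4.39% of all tiles, a share near the background. With both, 11.1% of members were higher, against 1.5%. The difference between the treatments was not tested. Median depth per member tile fell from 230.5 to 112 reads between the libraries with both supplements and from 148 to 143 between those with vitamin C alone, and the part of depth in the result was not tested.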

How the results depend on the processing

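The number of members depended on the limits: 664 with at least 20 reads per CpG, 555 with at least 5 CpGs per tile, 853 with a start under 10% and 721 with a gain of at least 30 points, against 1382. An unweighted tile level also gave 1382, of which 1251 were the same tiles, and tiles shifted by 500 bases gave 1420. Over all tiles the main shares called at 20 points, in the order below, were 18.9%, 9.4%, 5.14%, 4.23%, 2.58%, 0.412% and 1.74%. They are not given for the other settings, so the values there do not set members against all tiles. The share of members called at 20 points in the comparisons between libraries moved by over 1.5 times as follows. For vitamin C on day 5 it was 8.32% with a start under 10% and 51.7% with a 10-point limit (main 16.6%). For both supplements against untreated on day 5 it was 2.58% and 21.1% (main 5.14%). For vitamin C added to L-proline on day 2 it was 1.88% and 29.3%, and 5.69% with a gain of 30 points (main 3.55%). For L-proline added to vitamin C on day 5 it was 3.28% and 19.6%, and 9.71% with a gain of 30 points (main 5.64%). On day 2 it was 0.117% with a start under 10%, 0.301% with 20 reads, 0.832% with a gain of 30 points, 0.796% with reads thinned to the smaller library and 5.43% with a 10-point limit (main 0.507%). For day 5 against day 2 with both supplements it was 0.904% with 20 reads, 3.05% with a gain of 30 points and 7.82% with a 10-point limit (main 1.59%). With vitamin C alone it was 0% with 20 reads, with 5 CpGs and with a start under 10%, 0.145% with the unweighted level, 0.139% with a gain of 30 points, 0.434% thinned and 2.61% with a 10-point limit (main 0.217%).

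The limma share for vitamin C (main 26.6%, against 15.9% of all tiles) was 0% with a pseudocount of 0.5, with centring and with 20 reads. At these settings no tile passed at all. Without the L-proline term it was 15.1%, 209 members among 5253 of all 49568 tiles. With all 8 libraries, which is not independent of the rule, it was 54.7%, 756 members among 17202 tiles. Leaving out each library in turn gave 0% to 39.7%, with 1 residual degree of freedom. It was 0% without untreated day 5 or L-proline day 2 and 14.9% without both day 2. The share without both day 2 was 206 members, among 3676 of all tiles. The cause of these moves was not tested. Centring turned the median vitamin C term from -1.33 to 0.01 over members and from -0.89 to 0.45 over all tiles. At unadjusted p-values under 0.05, 985 tiles were lower and 10291 higher after centring, against 19670 and 364 before it. In the comparisons between libraries no median difference over members changed sign. No paired analysis was possible because the labels give no replicate numbers and each treatment and day has 1 library. Libraries were matched only through the day and L-proline terms of the limma fit.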
